A study of Mus musculus with 6 samples.

Results

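The subject is the 7 genes that encode the subunits found only in RNA polymerase II (Pol II), *Polr2a*, *Polr2b*, *Polr2c*, *Polr2d*, *Polr2g*, *Polr2i* and *Polr2j*, of 53060 genes or merged loci that carry a gene name in the counts. They were chosen by symbol, and each is 1 locus that names only that gene. No measured value was a criterion, but earlier results of these data were known when the choice was made. Pol II transcribes all protein-coding genes of the nucleus. Its remaining subunits are built into Pol I and Pol III as well, so the genes described here are those whose products serve Pol II alone. The largest subunit carries a C-terminal domain of repeated heptads whose phosphorylation accompanies the steps of transcription. ARMC5 is the substrate-binding part of a ubiquitin ligase with CUL3 and RBX1 that acts on POLR2A, and the comparison asks how the mRNAs of Pol II subunits compare when *Armc5* is deleted. Protein is not measured by these libraries.

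RNA was sequenced from neural progenitor cells (NPCs), labelled neural stem cells, of 3 cultures with the *Armc5* deletion (KO) and 3 wild-type cultures (WT). The cells came from the ganglionic eminences of mouse fetuses at embryonic day 13.5 and grew as neurospheres, floating clusters of dividing cells, with 20 ng/ml epidermal growth factor to passage 2. Both genotypes share this medium and the strain, which the labels give as 129 sv X CD1 and the study's methods as CD1 x C57BL/6 F1. The deletion is on both alleles and is carried by the whole animal. The libraries were made from total RNA after depletion of rRNA.

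*Armc5* stood at 1.01, 1.64 and 0.730 CPM (counts scaled to the size of the library) in KO NPC 1, 2 and 3, against 31.2, 29.5 and 26.2 CPM in WT NPC 1, 2 and 3, so its level went with the label in all 6 libraries. KO NPC 3 stood apart in other genes. *Nes*, a marker of neural progenitors, was at 75.9 CPM there and at 356 to 484 CPM in the other 5. *Sox2*, another such marker, in a locus merged with other genes, was highest there, at 812 CPM against 536 to 626 CPM. The 12 progenitor markers summed to 4047 CPM in KO NPC 3 against 4749 to 5549 in the others. That library was the lowest for 5 of the 12 and the highest for 3. The 7 astrocyte markers summed to 2021 CPM in KO NPC 3 against 689 to 1129 CPM in the others (*Gfap* 276 against 0.157 to 47.9). The 10 markers of the oligodendrocyte lineage summed to 4240 against 2626 to 3767 (*Mbp* 518 against 8.42 to 84.5). The 6 endothelial and mural markers summed to 77.1 against 3.79 to 7.41, but *Pecam1*, an endothelial marker, was at 0.560 against 0.301 to 0.599. KO NPC 3 was the highest library for 5 of the 7 astrocyte, 5 of the 10 oligodendrocyte and 3 of the 6 endothelial and mural markers. It was the lowest for 3 of the oligodendrocyte markers. The 9 neuron markers summed to 1379 CPM in KO NPC 3 against 803 to 1474. It was the highest library for 5 of these 9 and the lowest for 0. The 5 markers of fibroblasts summed to 1.90 against 1.63 to 7.46, with KO NPC 3 highest for 1 and lowest for 1. The 6 microglial markers summed to at most 0.950 CPM in any library, with KO NPC 3 highest for 4 and lowest for 0. KO NPC 3 also had the fewest counts, 52995791 at loci that name a gene, against 66018919 to 85170379. Member values are given with and without it, and the lists beside them likewise.

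The members differ most in *Polr2a*, whose product carries the repeats, and the coding sequence shows how the repeat is written in the transcript that the counts measure. In the principal GENCODE M21 transcript of *Polr2a*, which has 29 exons and 5910 coding bases, 21 stretches of 21 bases encode the exact consensus heptad, all of them in exon 29, the last. They hold 20 distinct base sequences, since units 16 and 17 are identical, and any pair shares 61.9% to 100% of its bases, with a median of 76.2%. The 4 units shown are written as in the mRNA, which follows the minus strand of GRCm38, with the tyrosine codon that opens each heptad in capitals: unit 1 at chr11:69735460-69735480, unit 2 at chr11:69735439-69735459, unit 7 at chr11:69735313-69735333 and unit 16 at chr11:69735124-69735144.
unit 1: TACtcccctacttcaccttcc
unit 2: TACtccccaacctctccatct
unit 7: TATtccccaacctctcctagc
unit 16: TACtcaccaacttctccaagc

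The 2 members with the highest CPM, *Polr2a* and *Polr2b*, also differ in the 50 bases before their RefSeq start (GRCm38.p6), which are shown for the pair whose ratio is compared. That of *Polr2a* lies at chr11:69758634-69758683 on the minus strand and that of *Polr2b* at chr5:77310434-77310483 on the plus strand, with matches to the motifs searched in capitals.
Polr2a: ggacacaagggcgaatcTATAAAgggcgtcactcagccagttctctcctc
Polr2b: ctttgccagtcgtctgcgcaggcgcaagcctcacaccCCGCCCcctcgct

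The capitals mark TATAAA, which begins 33 bases before the start of *Polr2a*, and in *Polr2b* the reverse complement of the GC box GGGCGG. Promoter sequences were matched for 5 of the 7 members, *Polr2a*, *Polr2b*, *Polr2c*, *Polr2i* and *Polr2j*. In the 300-base windows of these 5, searched on both strands, TATAAA was in 2 (*Polr2a* and *Polr2c*), the CCAAT box CCAAT in 3 and GGGCGG in 4, against 13.6%, 37.4% and 35.7% of all 32851 windows. A match is a run of letters and no measured binding.

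*Polr2a* encodes RPB1, the largest subunit, which forms most of the catalytic centre. It was at 245, 275 and 215 CPM in KO NPC 1, 2 and 3, against 361, 432 and 397 CPM in WT NPC 1, 2 and 3. Every KO library lay below every WT library. The means were 245 ± 29.9 CPM in the KO NPCs and 397 ± 35.4 CPM in the WT NPCs (SD, n = 3 each), so the KO mean was 61.8% of the WT mean. The log2 fold change of *Polr2a*, KO against WT, was -0.69 (standard error 0.16, 95% interval -1.09 to -0.30), with an unadjusted p = 0.00495 and, over the 19073 genes of edgeR's quasi-likelihood fit, an adjusted p = 0.983. This *Polr2a* difference therefore did not pass the threshold of 0.05 after adjustment. Of all genes tested, 31 had a p at or below that of *Polr2a*, and 938 had a log2 fold change at or below its own. Leaving out KO NPC 3 gave *Polr2a* a value of -0.61 (standard error 0.12), with an adjusted p = 1.000 by that test. With all 6 libraries and the replicate number as a block, the quasi-likelihood test gave *Polr2a* -0.70 (standard error 0.17). Its unadjusted p was then 0.0125 and its adjusted p 0.968. A bulk sample cannot tell fewer cells of a type from less RNA per cell.

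All 7 members passed the filter on low counts. Of them, 0 passed an adjusted p of 0.05 by edgeR's quasi-likelihood test, against 0% of all genes tested. The likelihood ratio test of edgeR also called 0 members, against 0.0891% of genes, and DESeq2 called 0, against 0.184%. At an unadjusted p under 0.05 with the KO lower there was 1 member, *Polr2a*, where 0.666% of genes tested met this rule. The KO libraries lay below all WT libraries in 1 member, again *Polr2a*, and in 3.28% of genes tested. Leaving out KO NPC 3 and testing with DESeq2, an alternative added after seeing the data, was the 1 processing of 20 in which a member was called: *Polr2a* gave a log2 fold change of -0.61 and an adjusted p = 0.00911 there, where 0.458% of genes were called. With the replicate number as a block that call was lost: DESeq2 without KO NPC 3 then gave *Polr2a* -0.61 and an adjusted p = 0.0993. With all 6 libraries DESeq2 gave *Polr2a* an adjusted p = 0.0654, and 0.909 with the block.

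**Figure D1:**
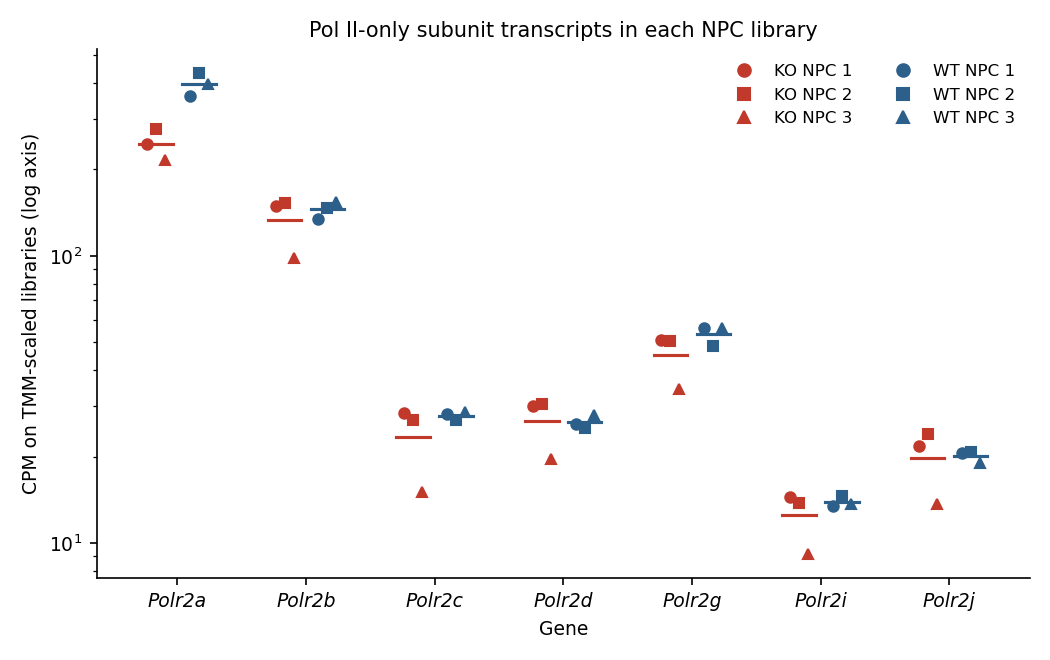
CPM of the 7 subunit genes on TMM-scaled libraries, on a log axis, with 1 point for each library (red KO, blue WT, shape for the replicate number) and a line at each group mean. The KO and WT points are apart only for *Polr2a*, and KO NPC 3, the red triangle, is the lowest point of every gene.

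The counts of *Polr2a* come from 1 assembled locus at chr11:69733997-69758872 on the minus strand, with 11 transcripts of which 7 were assembled by the authors. This locus lies wholly inside another on the same strand, *Eif5a*, which the assembly extends from 69647214 to 69921958, while GENCODE M21 places *Eif5a* from 69916714 to 69921958. The deposited model length is 2397 bases for *Eif5a*, whose GENCODE exons cover 2377, and 7212 bases for *Polr2a*. Which bases of the extended *Eif5a* locus that length covers is not stated. *Eif5a*, a translation factor, was at 647, 650 and 237 CPM in the KO libraries and at 595, 533 and 612 CPM in the WT libraries. The groups overlap in *Eif5a*, with a log2 fold change of -0.18 (standard error 0.39). *Zbtb4*, on the other strand, overlaps the *Polr2a* locus by 479 bases at the end where *Polr2a* transcription starts. The log2 fold change of *Zbtb4* was 0.67 (standard error 0.30). It was at 18.9, 17.1 and 15.1 CPM in the WT libraries and 20.4, 21.6 and 39.5 CPM in the KO libraries. The sources used here do not say how reads in overlaps were assigned, and the part of either locus in the *Polr2a* result was not tested.

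*Polr2b* encodes RPB2, the second-largest subunit, which completes the catalytic centre beside RPB1. It was at 149, 153 and 98.1 CPM in KO NPC 1, 2 and 3, against 135, 147 and 154 CPM in WT NPC 1, 2 and 3. KO NPC 1 and 2 lie within the range of the WT libraries and only KO NPC 3 lies below it. The log2 fold change of *Polr2b* was -0.12 (standard error 0.21, 95% interval -0.63 to 0.38, adjusted p = 0.983), and 0.06 without KO NPC 3. Its locus, chr5:77310147-77349324 on the plus strand, overlaps *Igfbp7* by 2302 bases and *Noa1* by 321 on the other strand. *Gm42758*, on the same strand inside it, had 8 to 21 counts in a library, against 5780 to 12324 for *Polr2b*.

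The catalytic pair can be compared within a library, where scaling cancels. For each *Polr2b* count there were 1.65, 1.80 and 2.20 *Polr2a* counts in KO NPC 1, 2 and 3, against 2.68, 2.95 and 2.58 in WT NPC 1, 2 and 3. The highest KO ratio lies below the lowest WT ratio. The mean was 1.88 ± 0.284 in the KO NPCs and 2.74 ± 0.188 in the WT NPCs (SD, n = 3 each). A two-sided exact permutation test gave p = 0.1, the smallest that 3 unpaired libraries against 3 allow. Here and below, this test left the replicate numbers aside. The share of all genes with such a separation in a ratio was not counted. *Polr2a* made up 45.4%, 48.0% and 53.1% of the counts of the 7 members in the KO libraries and 56.4%, 60.5% and 57.1% in the WT libraries. KO NPC 3, the lowest library for either gene in CPM, has the KO ratio nearest to the WT range.

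The same was done against *Rn7sk*, a small RNA made by Pol III that the study used for scaling. The study scaled by the log2 CPM of *Rn7sk* in a sample over its mean log2 CPM. Here its counts were used without a log, also in the fits, so the scales differ. For 1000 *Rn7sk* counts there were 20.9, 17.6 and 15.5 *Polr2a* counts in KO NPC 1, 2 and 3, against 28.0, 26.8 and 49.2 in WT NPC 1, 2 and 3. The groups do not overlap on this scale either, with the exact permutation test at its smallest p of 0.1, but the WT values spread widely. How many of all genes separate the genotypes per *Rn7sk* count was not counted. *Rn7sk* itself took 0.812% of the counts in WT NPC 3 and 1.14% to 1.57% in the others. With *Rn7sk* in place of TMM the log2 fold change of *Polr2a* was -0.94 (standard error 0.42, adjusted p = 0.965), and the median over all genes moved from -0.01 to -0.26, so *Polr2a* was -0.68 from the median under both scales. Per *Rn7sk* count the KO and WT libraries overlapped for each of the other 6 members.

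**Figure D2:**
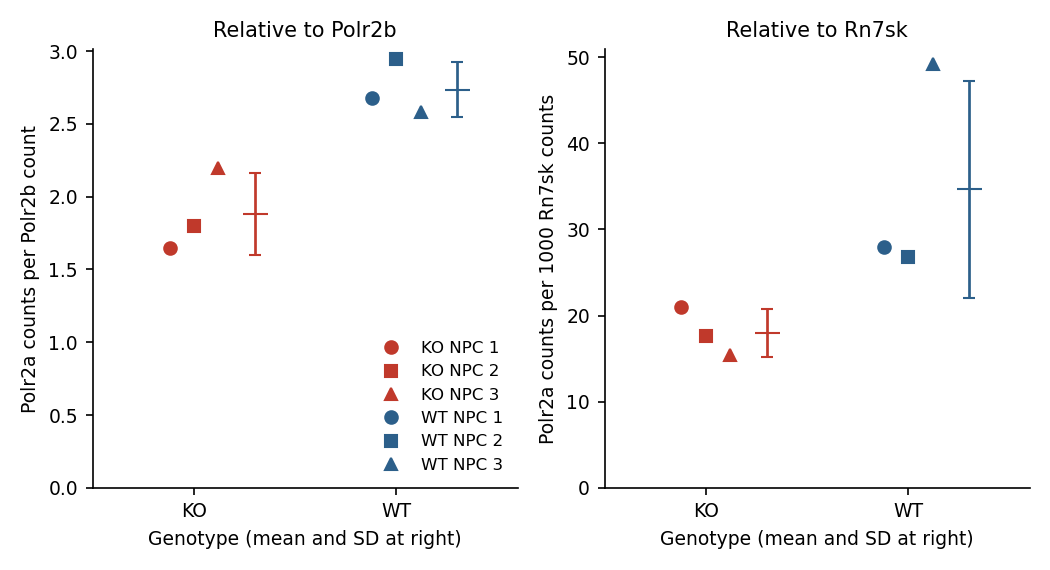
*Polr2a* counts for each *Polr2b* count (left) and for 1000 *Rn7sk* counts (right), with 1 point for each library and the group mean with its SD at the right of the points. In both panels the 3 KO libraries lie below the 3 WT libraries, 1.65 to 2.20 against 2.58 to 2.95 at the left and 15.5 to 20.9 against 26.8 to 49.2 at the right.

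*Polr2c* and *Polr2j* encode RPB3 and RPB11, which pair to form the platform on which the enzyme is assembled. *Polr2c* was at 28.3, 26.9 and 15.1 CPM in KO NPC 1, 2 and 3, against 28.1, 26.8 and 28.5 CPM in WT NPC 1, 2 and 3. *Polr2j* was at 21.7, 24.0 and 13.6 CPM and at 20.6, 20.8 and 19.1 CPM. In both genes KO NPC 3 was low and the other KO libraries were at or above the lowest WT library. The log2 fold change was -0.25 for *Polr2c* (standard error 0.26, 95% interval -0.88 to 0.39) and -0.03 for *Polr2j* (standard error 0.24, 95% interval -0.62 to 0.57), with adjusted p = 0.983 and 0.994. Without KO NPC 3 they were -0.01 and 0.18. *Polr2c*, at chr8:94857450-94873535 on the plus strand, shares 9708 bases with *Dok4* on the other strand, which had 341 to 490 counts against 888 to 2348 for *Polr2c*. *Polr2j*, at chr5:136116631-136122947 on the plus strand, shares 705 bases with *Gm43604* and 176 with *Lrwd1* on the other strand.

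*Polr2d* and *Polr2g* encode RPB4 and RPB7, which form the stalk of Pol II beside the exit of the RNA. *Polr2d* was at 30.1, 30.4 and 19.6 CPM in KO NPC 1, 2 and 3, against 26.0, 25.1 and 27.9 CPM in WT NPC 1, 2 and 3. KO NPC 1 and 2 were above all WT libraries and KO NPC 3 below them, so the log2 fold change of 0.02 (standard error 0.21, 95% interval -0.50 to 0.54, adjusted p = 0.994) averages over libraries that lie on both sides. It was 0.20 without KO NPC 3 and turned to -0.0046 with the replicate number as a block. *Polr2g* was at 50.8, 50.5 and 34.3 CPM in the KO libraries and at 55.9, 48.4 and 55.9 CPM in the WT libraries. Its log2 fold change was -0.24 (standard error 0.20, 95% interval -0.73 to 0.25, adjusted p = 0.983), and -0.08 without KO NPC 3. Relative to *Polr2b*, *Polr2d* amounted to 0.202, 0.199 and 0.200 in KO NPC 1, 2 and 3, against 0.193, 0.171 and 0.182 in WT NPC 1, 2 and 3. That ratio is the other one to *Polr2b* in which the genotypes do not overlap, here with the KO above (exact permutation p = 0.1). How many of all genes separate the genotypes in their ratio to *Polr2b* was not counted. Of the deposited loci, 0 overlap *Polr2d* (chr18:31789159-31796701, plus strand) or *Polr2g* (chr19:8793127-8798577, minus strand).

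*Polr2i* encodes RPB9, a zinc-binding subunit at the edge of the cleft that takes part in proofreading. It had the lowest CPM of the 7, at 14.5, 13.8 and 9.18 CPM in KO NPC 1, 2 and 3, against 13.5, 14.6 and 13.7 CPM in WT NPC 1, 2 and 3. Its smallest count, 541 in KO NPC 3, has an exact Poisson 95% interval of 496 to 589, which covers counting error only. The log2 fold change of *Polr2i* was -0.16 (standard error 0.23, 95% interval -0.71 to 0.40, adjusted p = 0.983), and 0.02 without KO NPC 3. It lies at chr7:30231948-30233390 on the plus strand and shares 325 bases with *Tbcb* on the other strand.

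**Figure D3:**
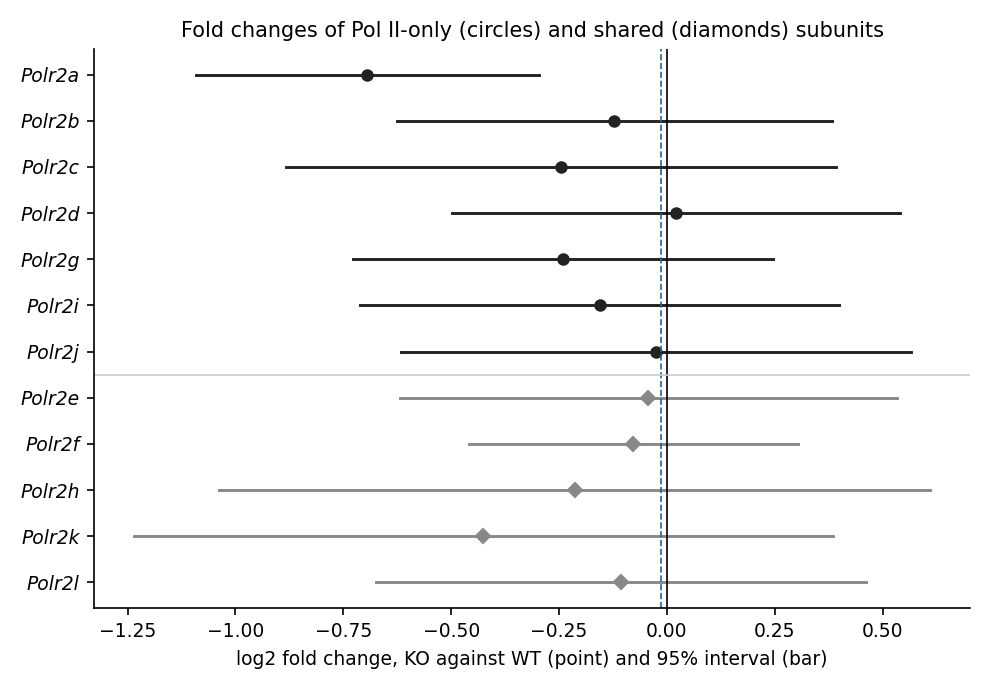
Log2 fold change, KO against WT, with its 95% interval for the 7 Pol II-only subunits (black circles) and the 5 subunits shared with Pol I and Pol III (grey diamonds); the dashed line is the median of all 19073 genes, -0.01. The interval of *Polr2a*, -1.09 to -0.30, lies below 0, and the interval of each other gene includes 0. All intervals are from the fit without the replicate block.

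As a group, 6 of the 7 members had a log2 fold change below 0, with a median of -0.16 against -0.01 over all genes tested. Both depended on KO NPC 3: with that library left out, 3 of the 7 were below 0 (*Polr2a*, *Polr2c* and *Polr2g*) and the median was 0.023, against -0.01 over all genes. KO NPC 3 was the lowest library of all 7, while it was the lowest for 36.8% of genes tested (7017). The CPM of the 7 summed to 539, 574 and 405 in KO NPC 1, 2 and 3, against 639, 714 and 696 in WT NPC 1, 2 and 3. Without *Polr2a* the sums were 294, 299 and 190 in the KO and 279, 282 and 299 in the WT libraries. The gap between the genotypes in KO NPC 1 and 2 is thus carried by *Polr2a*, and the gap of KO NPC 3 by all members.

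The libraries carry replicate numbers in the labels, and the comparison within a number shows the same division. The difference in log2 CPM of *Polr2a* was -0.56 between KO NPC 1 and WT NPC 1, -0.65 between those numbered 2 and -0.88 between those numbered 3. For the other 6 members the first pair differed by -0.14 to 0.21 and the second by -0.08 to 0.28. The third pair differed by -0.92 in *Polr2c*, -0.70 in *Polr2g*, -0.65 in *Polr2b*, -0.57 in *Polr2i*, -0.51 in *Polr2d* and -0.48 in *Polr2j*. *Polr2a* was the 1 member below 0 in all 3 pairs. *Polr2k*, a subunit shared with Pol I and Pol III, was also below 0 in all 3, at -0.014, -0.25 and -1.05. The share of all genes below 0 in all 3 pairs was not counted. The part of the marker levels of KO NPC 3 in these differences was not tested.

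**Figure D4:**
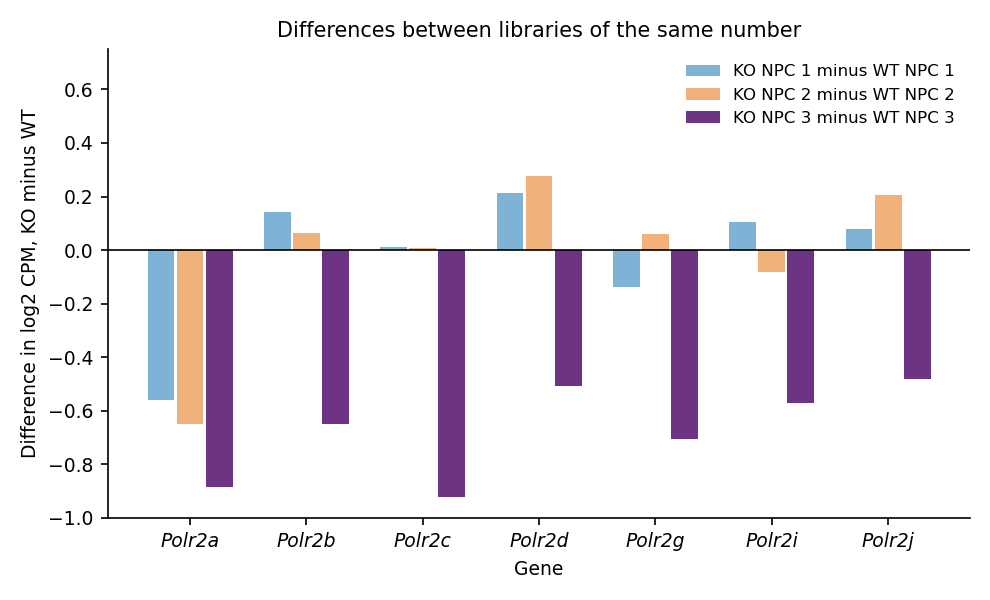
Difference in log2 CPM, KO minus WT, between libraries with the same replicate number, as 1 bar for each of the 3 numbers and each gene. *Polr2a* is below 0 for each number, -0.56, -0.65 and -0.88, while the other 6 genes are between -0.14 and 0.28 for numbers 1 and 2 and between -0.92 and -0.48 for number 3.

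Levels can be compared between genes only per length. On the scale of CPM per kilobase of the principal GENCODE M21 transcript, the WT NPCs had 60.0 ± 4.89 for *Polr2g* and 58.8 ± 5.26 for *Polr2a* (SD, n = 3), which do not differ beyond their spread. *Polr2b* followed at 35.0 ± 2.32, then *Polr2j* at 31.2 ± 1.44 and *Polr2d* at 25.9 ± 1.42. *Polr2c* at 17.6 ± 0.572 and *Polr2i* at 17.0 ± 0.759 were lowest and overlap each other. The WT libraries of other neighbours in this order do not overlap, though those of *Polr2b* (lowest 32.5) and *Polr2j* (highest 32.2) nearly meet. Both stalk genes were therefore at unlike levels, and so were both genes of the assembly platform. In the KO NPCs *Polr2a* was at 36.4 ± 4.44 CPM per kilobase, which overlaps the KO value of *Polr2b*, 32.1 ± 7.37, and *Polr2g* was at 50.8 ± 10.6. The order depends on the length taken: with the length of the deposited locus model *Polr2a* ranks above *Polr2g*, and *Polr2c*, whose model is 5256 bases against 1580 for the transcript, falls to the last of the 12 Pol II subunit genes.

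The 5 subunits shared with Pol I and Pol III, *Polr2e*, *Polr2f*, *Polr2h*, *Polr2k* and *Polr2l*, had log2 fold changes from -0.43 (*Polr2k*, standard error 0.34) to -0.04 (*Polr2e*, standard error 0.24), all below 0, with a median of -0.11. KO NPC 3 was the lowest library of all 5, and without it 3 of them, *Polr2e*, *Polr2h* and *Polr2l*, turned to 0.16, 0.077 and 0.059, *Polr2f* was at -0.0010, *Polr2k* at -0.24 and the median at 0.059. None passed the threshold by edgeR's quasi-likelihood test (0 at an unadjusted p under 0.05, and 0 by the likelihood ratio test or DESeq2). *Polr2k* was at 2.76, 3.49 and 2.00 CPM in the KO and 2.79, 4.15 and 4.15 CPM in the WT libraries, so the genotypes overlap. Among the 11 counterparts of the members in Pol I and Pol III, 3 were above 0 and 8 below, with a median of -0.06, from -0.19 for *Polr1a*, the largest subunit of Pol I, to 0.35 for *Polr3k*, which shares its locus with *Gm5466*. Without KO NPC 3 the median of the 11 turned to 0.069, 8 of them lay above 0, and *Polr3k* was at 0.062. None of the 11 passed the threshold by these 3 tests, and 0 had an unadjusted p under 0.05. *Polr1a* and *Polr3a*, which correspond to *Polr2a* in the other polymerases, had log2 fold changes of -0.19 (standard error 0.35) and 0.01 (standard error 0.13). *Polr1a* was at 142, 138 and 58.1 CPM in KO NPC 1, 2 and 3, against 122, 122 and 141 CPM in WT NPC 1, 2 and 3, and its value turned to 0.13 without KO NPC 3, while that of *Polr3a* stayed at 0.01. The difference between these values and that of *Polr2a* was not tested.

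Assembly factors and importers of Pol II, 17 genes, had a median log2 fold change of -0.17, with 3 above and 14 below 0, and KO NPC 3 was the lowest library of 13 of them. Without KO NPC 3 their median turned to 0.0084 and 11 of the 17 lay above 0. They ran from -0.25 for *Ruvbl1*, an ATPase of the R2TP chaperone (standard error 0.41), to 0.09 for *Rpap2* (standard error 0.22), and 0 passed the threshold by the 3 tests or an unadjusted p of 0.05. *Ruvbl1* was at 30.1 and 31.6 CPM in KO NPC 1 and 2, above the WT libraries (26.7, 29.5 and 29.8 CPM), and at 10.6 CPM in KO NPC 3. Leaving out that library turned *Ruvbl1* to 0.11 and *Rpap2* to -0.082. *Cul3* and *Rbx1*, the partners of ARMC5 in its ligase, had log2 fold changes of 0.04 and 0.03 (standard error 0.16 each), and 0.15 and 0.14 without KO NPC 3. *Armc5* itself gave -4.68 (standard error 0.36), or -4.45 without KO NPC 3, with the smallest p of all genes but an adjusted p = 0.0864 by the quasi-likelihood test of edgeR, and passed the threshold by the likelihood ratio test and DESeq2.

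The kinases, cyclins and phosphatases of the C-terminal domain were listed with *Mnat1*, *Rprd1a*, *Rprd1b* and *Rprd2*, which are none of these. The 17 genes had a median of 0.02, with 12 above 0 and 5 below (0.04, with 11 above and 6 below, without KO NPC 3). They ran from -0.34 for *Mnat1*, whose locus is merged with *Ppm1a* (standard error 0.29), to 1.33 for *Rprd1b* (standard error 0.41), and leaving out KO NPC 3 gave *Mnat1* -0.45 and *Rprd1b* 1.197. *Rprd1b*, which encodes a protein that binds the phosphorylated repeats, was at 46.9, 15.7 and 40.6 CPM in KO NPC 1, 2 and 3, against 12.3, 14.3 and 14.5 CPM in WT NPC 1, 2 and 3. All its KO libraries were above the WT libraries, but KO NPC 2 by little, and its unadjusted p of 0.0155 became an adjusted p = 0.983. It was the 1 gene of the list at an unadjusted p under 0.05, which 0.949% of all genes reached with the KO higher, and 0 of the 17 passed by any of the 3 tests. *Cdk7* and *Cdk9*, the kinases of TFIIH and P-TEFb, also had all KO libraries above all WT libraries, as did 2.74% of genes tested, with log2 fold changes of 0.26 (standard error 0.16) and 0.21 (standard error 0.17), or 0.12 and 0.10 without KO NPC 3.

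The genes whose log2 CPM followed *Polr2a* most closely over the 6 libraries, among 9879 genes with a mean of at least 10 CPM, were *2510039O18Rik* (Pearson r = 0.97), *Armc5* (0.97), *Arl15* (0.96), *Cinp* (0.96) and *Rrp7a* (0.96). They are given as a description, since all points share the same 6 libraries and any gene that separates the genotypes cleanly will rank high. In all, 34 genes had an r above 0.9. The other members were further from *Polr2a*, with r from 0.24 (*Polr2d*) to 0.65 (*Polr2g*).

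**Figure D5:**
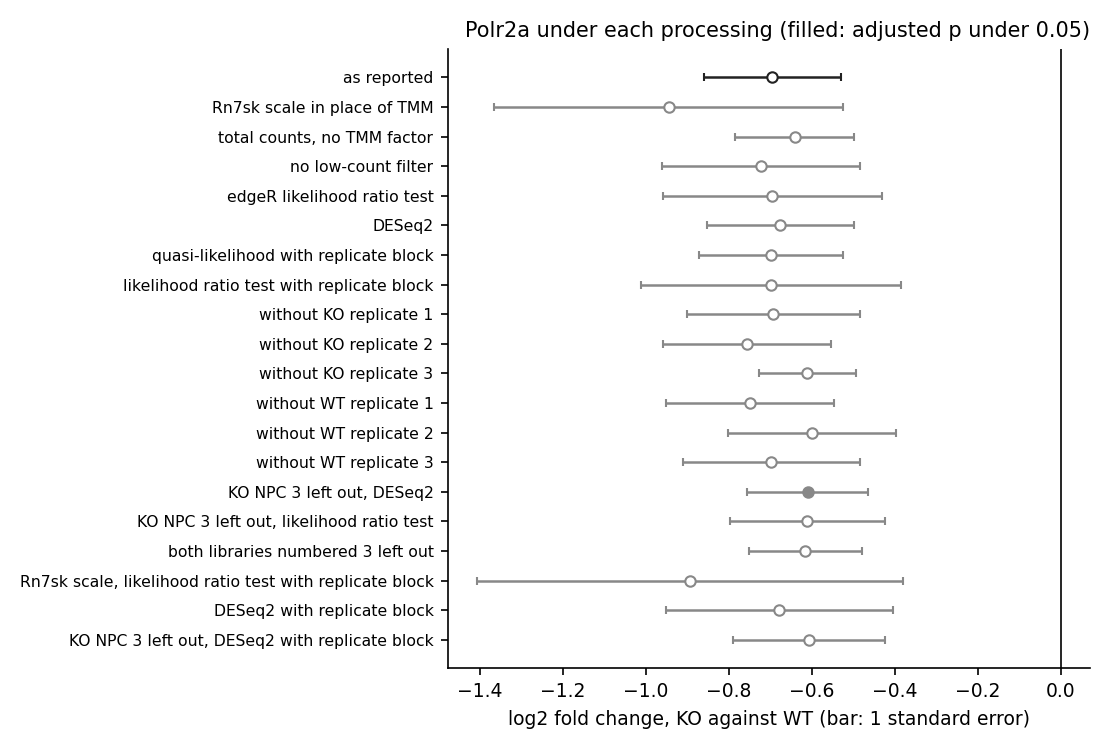
Log2 fold change of *Polr2a*, KO against WT, as reported (black) and under 19 other processings (grey), with 1 standard error on each side; a filled point has an adjusted p under 0.05. All points lie between -0.94 and -0.60 and 1 is filled, DESeq2 without KO NPC 3.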

How the data were processed

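Neural progenitor cell RNA from 3 *Armc5* KO and 3 WT cultures was sequenced in paired-end mode. Per the submitters' notes, GRCm38 was the build, and Trimmomatic, Picard, STAR, StringTie and edgeR the tools. The authors deposited whole-number counts per locus of an assembly merged with a reference annotation. The read counter, its use of strand and the versions are not given in the sources used here. The log2 CPM that the authors deposited were compared with the counts and served for nothing else. At loci with a mean count of at least 100, the largest difference from log2 CPM of the counts was 0.269. The authors' deposited log2 values relative to *Rn7sk* were not compared with the counts. The deposited locus length was used for levels per length.

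Counts at 53103 named loci were summed per gene. The 6596 unnamed loci were left out. They held 4.89% of the counts in KO NPC 3 and 1.31% to 1.72% in the other libraries. edgeR 4.0.16 in R 4.3.3 was used with filterByExpr (minimum count 10, total 15), TMM and the quasi-likelihood test, without a block. Standard errors are the log2 fold change over the root of F. P-values were adjusted by Benjamini-Hochberg over 19073 genes. The study calls the cultures biological replicates, and whether any share a litter is not stated. The script was tested on simulated data.

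The study's methods speak of pairs. Deviations from the group means correlated by 0.413, 0.169 and 0.195 between same-numbered KO and WT libraries. Between the others they correlated by -0.254 to 0.0579, so the numbers were taken to pair the samples. Standard errors, intervals and p-values nevertheless ignore the pairing unless the block is named. With the block, the quasi-likelihood test gave *Polr2b* -0.15, *Polr2c* -0.30, *Polr2d* -0.0046, *Polr2g* -0.26, *Polr2i* -0.18 and *Polr2j* -0.06. The standard errors of these values were 0.22 to 0.27.

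The alternatives were *Rn7sk* or total-count scaling, no filter, the likelihood ratio test, DESeq2 1.42.0, the block with either edgeR test, and each library left out. Combinations that leave out KO NPC 3 or both libraries numbered 3, and the block with DESeq2 (also without KO NPC 3) or with *Rn7sk*, were added after seeing the data. The members and lists were chosen with earlier results of these data known. Named were all members, *Armc5*, *Rn7sk*, genes past the threshold or at either end of each list, and the 5 genes most like *Polr2a*. Others, such as *Eif5a*, *Zbtb4*, *Polr2f*, *Polr2h*, *Polr2l*, *Polr3a*, *Cdk7*, *Cdk9*, *Cul3*, *Rbx1* and the marker genes, were named after their values were seen.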

Additional observations from a re-analysis of the deposited data

How the results depend on the processing

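*Polr2a* kept a log2 fold change below 0 under all 19 alternatives, from -0.94 to -0.60 (-0.76 to -0.60 with each library left out), and its unadjusted p ran from 2.97e-05 to 0.0817. Of 133 values for the 7 members, 26 turned sign, 0 of them for *Polr2a* or *Polr2g*. *Polr2b* turned to 0.056 without KO NPC 3 by either edgeR test and 0.057 by DESeq2, and to 0.094 without both libraries numbered 3. DESeq2 without KO NPC 3 but with the block gave 0.101 for *Polr2b*, 0.0079 for *Polr2c*, 0.0098 for *Polr2i* and 0.142 for *Polr2j*, also turned. *Polr2c* turned to 0.0028 without both. *Polr2i* turned to 0.023 without KO NPC 3 by either edgeR test and 0.024 by DESeq2, and to 0.0039 without both. *Polr2j* turned to 0.018 with total counts, to 0.18 without KO NPC 3 by each of the 3 tests, to 0.14 without both and to 0.03 without WT NPC 2. *Polr2d* turned to -0.24 with *Rn7sk* scaling, -0.00082 without a filter, -0.073 without KO NPC 1, -0.050 without KO NPC 2, and, with the replicate block, to -0.0046 (quasi-likelihood), -0.0045 (likelihood ratio) and -0.19 (likelihood ratio and *Rn7sk*). With each library left out the values ran from -0.21 to 0.06 for *Polr2b*, -0.28 to 0.02 for *Polr2i*, -0.15 to 0.18 for *Polr2j* and -0.07 to 0.20 for *Polr2d*. The number of members called was 1 for DESeq2 without KO NPC 3, which the block ended, and 0 otherwise, so the block had no other call to change. The median of the members was -0.39 to -0.09 with KO NPC 3 and turned to between 0.0039 and 0.024 in the 5 alternatives without it.

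Over all genes, 0 calls became 4 with *Rn7sk*, 5 without a filter, 17 with the likelihood ratio test (68 without KO NPC 3), 35 with DESeq2 (90 without KO NPC 3, 49 with the block, 132 with both), 38 with the likelihood ratio test and the block, and 22 with these and *Rn7sk*. *Armc5* was the 1 call of its list (0 as reported) in each of these 10. The cause was not tested. Depth limits no member: the smallest count was 541.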
